A study of Caenorhabditis elegans with 5 samples.

Results

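The nascent RNA of hrde-1 mutant worms was compared with that of wild type (WT) across the C. elegans genome, with 1 pre-mRNA-seq library for each genotype. Of the 5 libraries of the series, these share the library set of their codes with met-2 set-25, while set-32 and the triple mutant carry the code of another set. Of 100270 windows of 1 kb, the 506 that the authors marked misannotated were left out and 99764 were compared. WT was the N2 strain and the mutant carried the tm1200 allele of hrde-1. Both were young adult hermaphrodites grown at 19 °C on OP50 bacteria. RNA was isolated from whole animals after pull-down of chromatin through RNA polymerase II with a phosphate on serine 2 of its C-terminal repeat, the elongating form. The other 3 libraries were set-32 (ok1457), met-2 set-25 (n4256 and ok5021), and the triple mutant with these 3 genes mutated, and are given beside the pair where their levels bear on it. The ribosomal RNA genes took 4.66% of the values in WT, 8.93% in hrde-1 and 5.75% in met-2 set-25, but 27.9% in set-32 and 37.4% in the triple mutant. The deposited scaling thus lowers every other window of the last pair, and statements on the highest or lowest of the 5 libraries hold for values as deposited unless another scaling is given.

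HRDE-1 is an Argonaute protein of the germline nucleus. It binds small RNAs made against a target, and with its partners silences transcription of that target and directs trimethylation of histone H3 at lysine 9 (H3K9me3), a mark of silent chromatin, so that silencing can pass to later generations. Its native targets are rich in long terminal repeat retrotransposons. GRTS loci are native targets whose transcriptional silencing needs this pathway, and GRH loci are those whose H3K9me3 needs it. The authors drew both lists from earlier work with hrde-1 mutants, so a higher hrde-1 level at a listed window is not independent evidence of its direction.

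The values were RPKM, read numbers scaled to window length and library depth, in which 1 read was worth 0.912 RPKM in WT versus 1.47 in hrde-1. The libraries held 1096000 and 678234 reads by that measure, so a window at 20 RPKM rested on 21.9 reads in WT and 13.6 in hrde-1. Each genotype had 1 library, so no difference was checked by replicates and no p-value is printed. Windows are not replicates, and the 95% counting intervals allow for counting error alone and not for PCR copies of one molecule. The deposited windows name no gene and use the ce6 genome, for which no annotation was used here, so the level of hrde-1 itself and lists of germline or soma markers could not be read. Of germline genes only oma-1 was located, through the study's primers. In whole animals, fewer cells of a type and less RNA per cell cannot be told apart. Across the 34770 windows in neither list with a mean of the pair of at least 5 RPKM, the median log2 ratio of hrde-1 to WT was -0.11 (quartiles -0.54 to 0.32). Every log2 ratio below was taken after adding 1 RPKM to both values and is to be read against that median.

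A window was called when the ratio after adding 1 RPKM reached 2 in either direction and at least 1 of the values reached 20 RPKM. Of 15547 windows that reached 20 RPKM, 747 (4.8%) were higher in hrde-1 and 1100 (7.08%) were lower, so that 40.4% of the called windows were higher. This split turned with the scaling. With hrde-1 rescaled so that windows in neither list had a median ratio of 1, 1025 were higher (6.35%) and 847 lower (5.24%), a share of 54.8% higher. With totals that leave out the rRNA genes, 955 were higher (5.92%) and 916 lower (5.68%), a share of 51% higher. Outside both lists, the figures as deposited were 579 higher (3.79%) and 1089 lower (7.12%) of 15290.

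GRTS windows stood far above this background. Among the 191 windows the WT level had a median of 5.75 RPKM and a range from 0 to 85.7 RPKM, and the hrde-1 level had a median of 35.4 RPKM and a range from 0 to 575 RPKM. The 3 methyltransferase mutants had GRTS medians of 3.73 (met-2 set-25), 5.09 (set-32) and 3.09 RPKM (triple mutant), all below the lower quartile of 17.2 RPKM in hrde-1. Of the 135 GRTS windows that reached 20 RPKM, 128 were called higher (94.8%) and 0 lower, beside 4.8% and 7.08% over all windows. The ratio was between 2 and 4 in 34 of them, between 4 and 8 in 48, between 8 and 16 in 30 and at least 16 in 16. Since the lists came from hrde-1 animals, these counts describe the members and test nothing.

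Adjacent GRTS windows form 94 loci, 59 of them of 1 window and 8 of 5 windows or more. The counting interval of the summed ratio lay above 1 in 71 loci, included 1 in 23 and lay below 1 in 0, and hrde-1 had the highest level of the 5 libraries in 86 (85 with all totals taken without the rRNA genes). Among the 60 loci with a window that reached 20 RPKM, the ratio ranged from 0.85 to 92.1 with a median of 5.63. The highest value came from II 2152001 to 2153000, where 1 read in WT stood against 57 in hrde-1 and the counting interval ran from 15.9 to 3701.

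Some loci had few reads in WT and many in hrde-1. At V 20296001 to 20299000 the level was 6.38 RPKM in WT, 112 in hrde-1, 4.23 in met-2 set-25, 17.7 in set-32 and 2.06 in the triple mutant, a ratio of hrde-1 to WT of 17.5 (11.2 to 28.9). At IV 526001 to 529000 WT had 10 reads (3.13 RPKM) and hrde-1 had 119 (58.7 RPKM). IV 14415001 to 14417000 held 0 reads in WT and 28 in hrde-1. Its ratio was 15.1 with WT set to the floor of 3 reads, and by its counting interval the level was at least 11.5-fold higher.

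In 7 of the 8 loci of 5 windows or more, all windows were called higher. The exception was IV 915001 to 922000, where 1 of the 2 windows that reached 20 RPKM was called, on a mean of 8.21 RPKM in WT versus 30.5 in hrde-1 (3.72-fold, 2.75 to 5.08). At IV 4124001 to 4132000, all 8 windows were called higher, with a mean of 13.3 RPKM in WT versus 190 in hrde-1 (14.2-fold, 11.7 to 17.4), against 15.2 RPKM in met-2 set-25, 17.3 in set-32 and 10.8 in the triple mutant. At V 17568001 to 17573000, all 5 windows were called higher, with 4.65 RPKM in WT versus 37.2 in hrde-1 (8.14-fold, 5.27 to 13.1). At II 2516001 to 2521000, the 5 windows had 11.1 RPKM in WT versus 58.9 in hrde-1 (5.30-fold, 3.96 to 7.18). In the last 3 loci hrde-1 was the only library far from the rest, since the other 4 lay between 2.47 and 18.5 RPKM.

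Reads from repeated sequence were divided among the places they matched, and 130 of the 191 GRTS windows held such shared reads. On chromosome V, a pair of GRTS loci of 11 windows each, 42 kb apart, had nearly the same level in every library. The locus from 8826001 to 8837000 had 9.60 RPKM in WT versus 62.4 in hrde-1, and the one from 8868001 to 8879000 had 9.82 and 63.4. Only 1 of their 22 windows held whole reads alone, so the pair cannot be counted as separate evidence. The GRTS change did not need shared reads. The median log2 ratio was 2.60 over the 50 windows of whole reads and 2.28 over the 124 with shared reads, each with a mean of at least 5 RPKM.

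GRTS windows differed in size of change by chromosome and by H3K9me3 tier. The median log2 ratio was 1.75 on I (22 windows), 1.83 on II (30), 1.97 on III (9), 2.66 on IV (34) and 2.66 on V (79), and no GRTS window lies on X. The quartiles of these chromosomes overlapped, from 1.30 to 2.39 on I and from 1.93 to 3.41 on V. The deposited score named K9_tire, which the sources used here do not define, divides the windows into tiers. The share of windows marked for H3K9me3 loss in the triple mutant falls from 99% in tier 1 to 50.9% in tier 3 and 0% in tiers 6 and 7, so tier 1 is taken as the end with most H3K9me3. Over GRTS windows the ratio of summed levels was 8.64 (7.74 to 9.67) in tier 1, 6.05 (5.61 to 6.54) in tier 2, 5.45 (4.95 to 6.01) in tier 3, 3.68 (3.20 to 4.26) in tier 4 and 2.86 (2.04 to 4.04) in tier 5. The medians of the same tiers were closer, at 2.60, 2.48, 2.34, 2.20 and 1.23 on the log2 scale, the last over 6 windows.

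**Figure D1:**
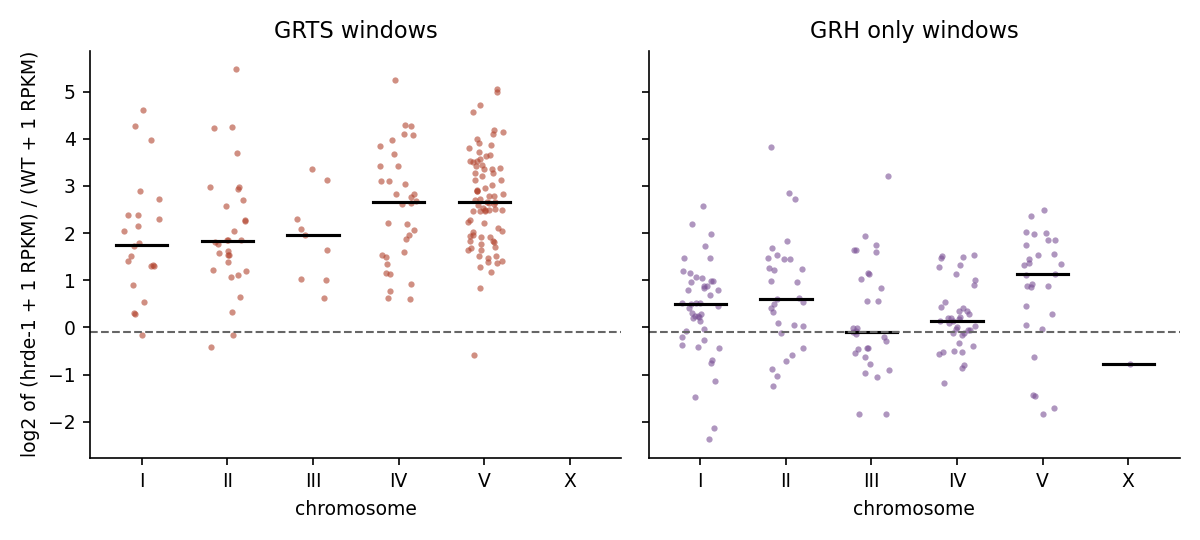
Each point is a listed window with a mean of the pair of at least 5 RPKM, plotted as log2 of the ratio of hrde-1 to WT after adding 1 RPKM (vertical axis) by chromosome. Left, GRTS windows; right, windows in the GRH list only; black bars are medians and the dashed line is the median of -0.11 for windows in neither list. GRTS medians lie between 1.75 and 2.66, and those of GRH only windows between -0.09 and 1.14 on the autosomes.

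A few GRTS windows departed from the rest. The 7 windows that reached 20 RPKM without being called had ratios from 0.75 to 1.96. Of these, 3 were in both lists and 4 were of whole reads. The plainest case was II 5098001 to 5100000, a pair of windows in both lists. It had 60.7 RPKM in WT, 51.6 in hrde-1, 18.7 in met-2 set-25, 67.4 in set-32 and 6.18 in the triple mutant, and a ratio of 0.85 (0.63 to 1.14). WT was thus already high there, and hrde-1 and WT could not be told apart by counting. The other 3 GRTS windows with a lower value in hrde-1 held 3 to 11 reads in WT, and their intervals included 1.

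GRH windows changed less and in both directions. Their level had a median of 15.96 RPKM in WT versus 25.1 in hrde-1, with ranges from 0 to 108 and from 0 to 533 RPKM, and medians of 11.7 RPKM in met-2 set-25, 15.3 in set-32 and 7.72 in the triple mutant. Of the 144 GRH windows that reached 20 RPKM, 59 were called higher (41.0%) and 11 lower (7.64%), against 4.8% and 7.08% over all windows. The 25 windows in both lists carried part of this. In the 190 windows of GRH alone, 40 of 122 were higher (32.8%) and 11 lower (9.02%), the median log2 ratio was 0.41, and the share of lower windows was close to the 7.08% of the genome. The 104 GRH loci had 42 counting intervals above 1, 52 that included 1 and 10 below 1.

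The GRH windows with large differences were few. On V, 10048001 to 10049000 had 48.3 RPKM in WT, 199 in hrde-1, 70.2 in met-2 set-25, 21.6 in set-32 and 40.2 in the triple mutant (4.12-fold, 2.98 to 5.77). On II, 11171001 to 11178000 was a locus of 7 GRH windows, all but 1 of whole reads, with 16.4 RPKM in WT versus 39.99 in hrde-1 (2.44-fold, 1.94 to 3.08). On V, 5472001 to 5479000 had 41.9 RPKM in WT versus 117 in hrde-1 (2.81-fold, 2.44 to 3.23), against 4.41 RPKM in the triple mutant. By chromosome, the median log2 ratio of windows in GRH alone was 1.14 on V, 0.61 on II, 0.49 on I, 0.13 on IV and -0.09 on III. The lower quartile was 0.28 on V and lay between -0.53 and 0.03 on the other autosomes. The 3 GRH windows of X held 13 WT reads or fewer and had intervals that included 1.

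The 11 listed windows called lower were all in GRH alone, and 4 chromosomes held them. I 5980001 to 5982000 was the strongest of these. Its first window had 93.8 RPKM in WT, 20.6 in hrde-1, 43.3 in met-2 set-25, 49.1 in set-32 and 7.72 in the triple mutant, a ratio of 0.22 (0.12 to 0.39), and its second had 60.3 RPKM in WT versus 10.8 in hrde-1. Both held shared reads. Over the GRH locus around them, I 5978001 to 5983000, the ratio was 0.40 (0.29 to 0.54). The other windows had ratios from 0.25 to 0.48, on between 4 and 16 hrde-1 reads, and 6 of them were of whole reads. At 10 of the 11 windows WT was the highest of the 5 libraries (7 with totals without the rRNA genes), and the exception among values as deposited was III 2605001 to 2606000, at 79.1 RPKM in set-32 and 61.9 in met-2 set-25 against 47.0 in WT.

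The higher level did not end at the edge of the GRTS list. Among unlisted windows, those 1 kb from a GRTS window had a median log2 ratio of 1.53, and 47 of the 60 that reached 20 RPKM were called higher (78.3%, against 3.79% over all unlisted windows). The median was 1.04 at 2 kb, 0.72 at 3 kb, 0.18 at 4 kb and 0.29 at 5 kb. From 7 to 10 kb it lay between -0.01 and 0.02, and over 100 kb from either list it was -0.11. In levels, the median window 1 kb away had 7.75 RPKM in WT versus 25.8 in hrde-1, and at 10 kb the medians were 19.2 and 20.3 RPKM. A window that low in WT can reach 20 RPKM only through hrde-1, which favours a higher call. The 78.3% and the 3.79% are therefore not like shares, and they describe the windows only. The medians share this limit, since a mean of the pair of 5 RPKM can also be reached through hrde-1. With that minimum set on the mean of the other 3 libraries, the median at 1 to 2 kb was 0.87. Over all unlisted windows it was then -0.13. The number of windows behind each step is small, from 95 at 1 kb to 42 at 10 kb, and their quartiles overlap from each step to the next.

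**Figure D2:**
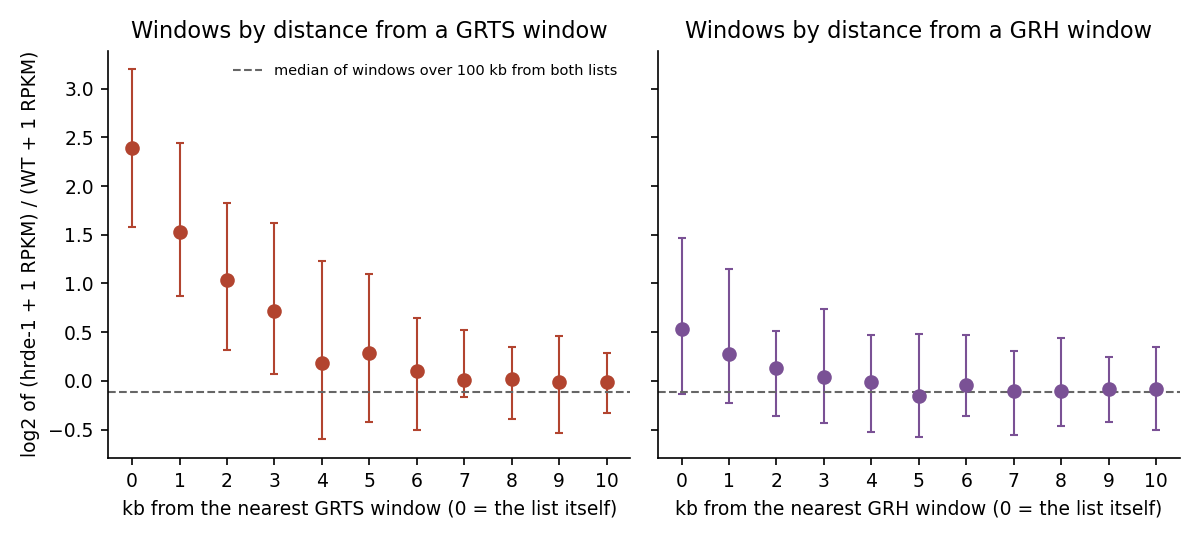
Points are the median log2 ratio of hrde-1 to WT (after adding 1 RPKM) of windows in which the mean of the pair reached 5 RPKM, and bars run from the lower to the upper quartile. The horizontal axis is the distance in kb from the nearest GRTS window (left) or GRH window (right), with the list itself at 0 and unlisted windows from 1 kb on; the dashed line is the median of -0.11 for windows over 100 kb from both lists. The GRTS medians fall from 2.39 at the list to 1.53 at 1 kb and 0.01 at 7 kb, and the GRH medians from 0.53 to 0.27 and -0.11.

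The flanks were above the genome median whichever way they were divided. At 1 to 2 kb the median log2 ratio was 1.39 in all, 1.64 over the 56 windows of whole reads and 1.25 over the 113 with shared reads. Windows with GRTS windows on both sides within 5 kb had a median of 1.75, and those with GRTS on one side had 1.16. Flanking windows in tiers 1 to 3 had a median of 1.42 and those in tiers 4 to 7 had 1.13. Without chromosome V, which holds the longest loci, the median was 1.17. At 3 to 5 kb the medians of the tiers differed, at 1.05 in tiers 1 to 3 and 0.18 in tiers 4 to 7. Of the windows that reached 20 RPKM there, 14 of 23 and 8 of 43 were called higher. Over all unlisted windows that reached 20 RPKM, the share was 3.79%. Windows of low WT level could reach 20 RPKM only through hrde-1, so these small counts describe the windows only.

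The reach beyond a locus was also counted edge by edge. The 56 GRTS loci with a called window have 112 edges, of which 101 adjoin an unlisted window that was kept. At 44 of these edges (43.6%) the adjoining window was called higher too, and these were 44 of the 55 whose adjoining window reached 20 RPKM. Over all unlisted windows that reached 20 RPKM, 3.79% were called higher. Loci of either list were taken for having a called window. An adjoining window of low WT level could reach 20 RPKM only through hrde-1, so these counts describe the edges and test nothing. The run of higher unlisted windows was 1 kb at 31 edges, 2 kb at 6 and 3 kb or more at 7, with a longest reach of 6 kb. Such runs began at 21 left and 23 right edges. A gap between neighbouring loci was counted from both sides, so the edges are not separate cases. V 8826001 to 8837000 and V 8840001 to 8841000 share a run of 3 kb. V 8868001 to 8879000 and V 8883001 to 8884000 share another of 4 kb. The reach of 6 kb right of V 20296001 to 20299000 ended at another GRTS locus. That right of I 11055001 to 11056000, also 6 kb, ended at no listed window. For GRH loci, 13 of 61 such edges had an adjoining window called higher (21.3%), and 10 of these runs were of 1 kb.

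Among the unlisted windows within 5 kb of a listed one, 116 were called higher. Their median level was 9.12 RPKM in WT, 35.4 in hrde-1, 6.59 in met-2 set-25, 8.98 in set-32 and 4.89 in the triple mutant. In 110 of them (94.8%) hrde-1 was the highest library, or in 106 with totals without the rRNA genes. As deposited, it was the highest in 77.5% of all unlisted higher windows and in 24.4% of those that reached 20 RPKM uncalled. The call itself favours a high hrde-1 value, so the 94.8% describes the called windows only. V 5186001 to 5187000, which lies between GRTS windows, had 25.5 RPKM in WT versus 202 in hrde-1 (7.91-fold, 5.24 to 12.3). V 20302001 to 20303000, 3 kb from a GRTS window, had 6.38 RPKM in WT versus 114 in hrde-1 (17.8-fold, 8.23 to 45.7). V 15165001 to 15166000 had 19.1 RPKM in WT versus 143 in hrde-1 (7.46-fold, 4.62 to 12.6). The other 3 libraries lay between 0 and 42.2 RPKM in these windows.

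Not every window near a list followed that pattern. II 11167001 to 11168000, 4 kb from a listed window, had 58.4 RPKM in WT versus 128 in hrde-1, but 124 in met-2 set-25, 268 in set-32 and 997 in the triple mutant. II 10933001 to 10934000 had 145 RPKM in WT, 334 in hrde-1, 312 in set-32, 148 in the triple mutant and 11.2 in met-2 set-25. A level above WT was thus not particular to hrde-1 at these places.

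The flanks of GRH windows had medians above that of the genome up to 3 kb and near it beyond, with a larger share of windows called higher at 1 kb. The median log2 ratio was 0.27 at 1 kb, where 26 of 74 windows were called higher (35.1%, against 3.79% over all unlisted windows), 0.13 at 2 kb and 0.04 at 3 kb, and lay between -0.15 and -0.01 from 4 to 10 kb. When windows within 5 kb of GRTS were left out, 19 of 58 were higher at 1 kb (32.8%) and the median was 0.19. These shares also hold windows that reached 20 RPKM only through hrde-1, which favours a higher call. Over 1 to 2 kb the median of 0.19 depended on low windows, and at a mean of at least 20 RPKM it was -0.01.

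Outside the lists, the share of windows called higher fell with the H3K9me3 tier from tier 2 on. The share called higher was 32.4% in tier 2 (58 of 179), 16.2% in tier 3, 7.53% in tier 4, 6.53% in tier 5, 3.71% in tier 6 and 1.44% in tier 7 (135 of 9365). The share called lower was 8.38%, 9.81%, 10.2%, 11%, 9.19% and 5.29% in the same order. Over all unlisted windows that reached 20 RPKM, 3.79% were higher and 7.12% lower. That level was reached by 179 of 814 windows in tier 2 and by 9365 of 23816 in tier 7. A window of low WT level could reach it only through hrde-1, which favours a higher call. The shares of the tiers are therefore not like shares, and they describe the windows only. The medians moved less, from a log2 ratio of 0.32 in tier 2 to 0.06 in tier 3 and between -0.13 and -0.10 in tiers 4 to 7. Level and depth moved with the tier. The median WT level was 11.9 RPKM in tier 2 and 18.2 in tier 7, and among windows with a pair mean that reached 5 RPKM 30.5% in tier 2 and 79.3% in tier 7 were of whole reads. Over all unlisted windows, 474 of 814 in tier 2 and 19236 of 23816 in tier 7 were. Their part in these shares was not tested.

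Higher calls outnumbered lower ones in tier 2 mainly close to the lists. Over 20 kb from any listed window, 16 of 99 tier 2 windows were higher (16.2%) and 14 lower (14.1%), beside 3.05% and 7.19% over all windows that far away, and the median was 0.02. Within 20 kb, 42 of 80 were higher (52.5%) and 1 lower, with a median of 0.97. Tier 3 had 38 higher and 40 lower of 369 far from the lists, and 38 higher and 6 lower of 100 near them. Tiers 6 and 7 were alike near and far, with 4.42% and 1.52% higher near the lists and 3.66% and 1.44% far from them. The difference of the medians of tiers 2 and 7 was accordingly 0.45 over all unlisted windows and 0.15 over those far from the lists. This contrast was chosen after the data were seen.

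Tier 1, with 79 unlisted windows, ran in opposite directions by place. Its 6 windows called higher all lay within 2 kb of a listed window. Over 20 kb from the lists, 8 of 17 were lower (47.1%) and 0 higher, beside 7.19% and 3.05% over all windows that far away. All 8 lay on chromosome V and 6 of them in one run, V 17138001 to 17145000. Without that run, 2 of 11 were lower, too few to set apart from the 7.19%. The median log2 ratio of the 26 windows whose mean reached 5 RPKM was then -0.44, against -0.82 with the run. Over all unlisted windows of tier 1, near and far, the median was -0.41.

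Tier 8 held 13 kept windows, all at the right end of chromosome I from 15060001 to 15073000. Their high level and place are those of the ribosomal RNA genes. They had 3582 RPKM in WT, 6868 in hrde-1, 4427 in met-2 set-25, 21439 in set-32 and 28798 in the triple mutant, a ratio of hrde-1 to WT of 1.92 (1.89 to 1.94). None reached the call. They took 4.66% of the WT library and 8.93% of the hrde-1 library. The median of tier 8 was 1.35 above that of tier 1 on the log2 scale, and this compares ribosomal RNA genes with tier 1 rather than a step of H3K9me3.

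**Figure D3:**
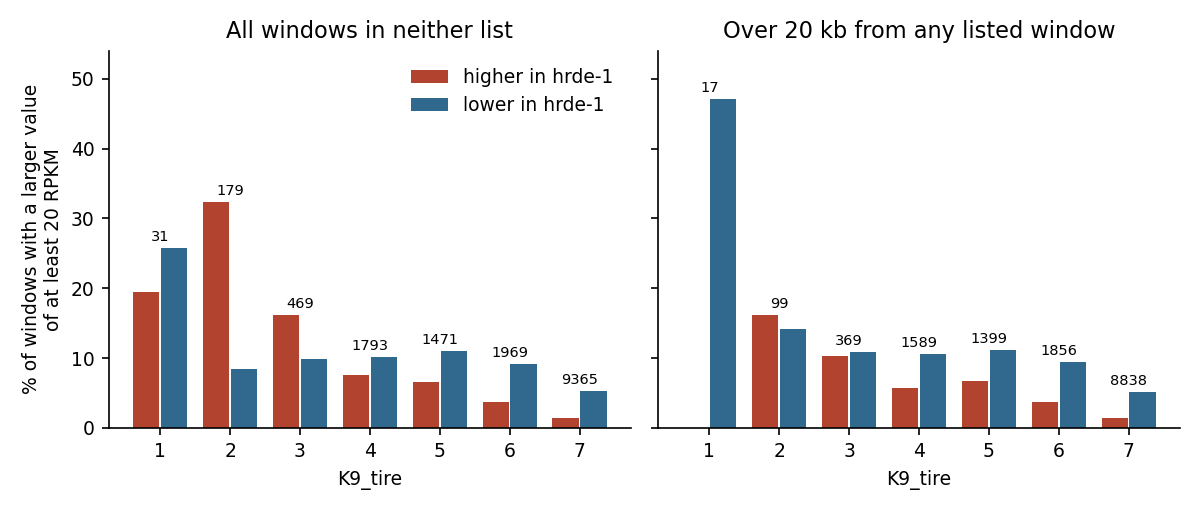
Bars give the share of unlisted windows called higher (red) or lower (blue) in hrde-1, as a percentage of those that reached 20 RPKM in either library, by K9_tire; numbers above the bars count these windows. Left, all windows in neither list; right, those over 20 kb from any listed window. Far from the lists the share higher in tier 2 is 16.2% in place of 32.4%, and in tier 1 it is 0%.

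The unlisted window with the highest hrde-1 level among those called higher was looked up in each tier. In tier 2 it was II 2160001 to 2161000, 1 kb from a GRTS window, with 55.6 RPKM in WT versus 135 in hrde-1 (2.41-fold, 1.72 to 3.39) and 29.6 to 63.2 RPKM in the other libraries. In tier 6 it was I 6499001 to 6500000, with 96.2 RPKM in WT, 242 in hrde-1, 286 in met-2 set-25, 167 in set-32 and 191 in the triple mutant. In tier 7 it was II 15025001 to 15026000, with 109 RPKM in WT, 227 in hrde-1, 164 in met-2 set-25, 354 in set-32 and 1065 in the triple mutant. In the last pair WT was the lowest of the 5 libraries.

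The chromosomes had nearly the same median and differed in the number of called windows. Outside the lists the median log2 ratio lay between -0.13 and -0.09 on all 6 chromosomes. The share called higher ran from 2.53% on III to 5.84% on V. The share called lower lay between 6.24% and 6.95% on the autosomes and was 14.6% on X (139 of 954). X was also the chromosome of lowest level, with a median of 10.9 RPKM in WT against 15.8 on the autosomes. Within classes set by the level of the other 3 libraries, the share called lower was 18.2% on X and 8.74% on the autosomes at 10 to 20 RPKM, and 11.8% (36 of 306) and 4.50% at 20 to 50 RPKM. The median of X was 0.01 above that of the autosomes, and at a mean of at least 20 RPKM it was 0.10 above, so the lower calls of X did not come with a lower median.

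Autosome arms, where H3K9me3 is concentrated in worms, and centres differed slightly. The median log2 ratio was -0.14 in the arms and -0.08 in the centres, a difference of -0.06 that was -0.05 without chromosome V and also with arms of the outer 20%. In the arms 4.30% of windows were called higher and 8.18% lower, and in the centres 3.03% and 5.05%. On V the parts differed most, with 11.8% lower in the right arm (65 of 550) against 4.46% in the centre. On II the left arm had 7.13% higher and the centre 1.76%. Tier 2 windows of the autosome centres were few and mostly higher, with 16 of 21 called higher and a median of 1.42, against 40 of 147 and 0.28 in the arms. Over all unlisted tier 2 windows that reached 20 RPKM, 32.4% were higher. Distance from the lists was not set apart here. The centre of V holds the pair of GRTS loci with shared reads, V 8826001 to 8837000 and V 8868001 to 8879000. The part of their flanks in the 16 was not tested.

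**Figure D4:**
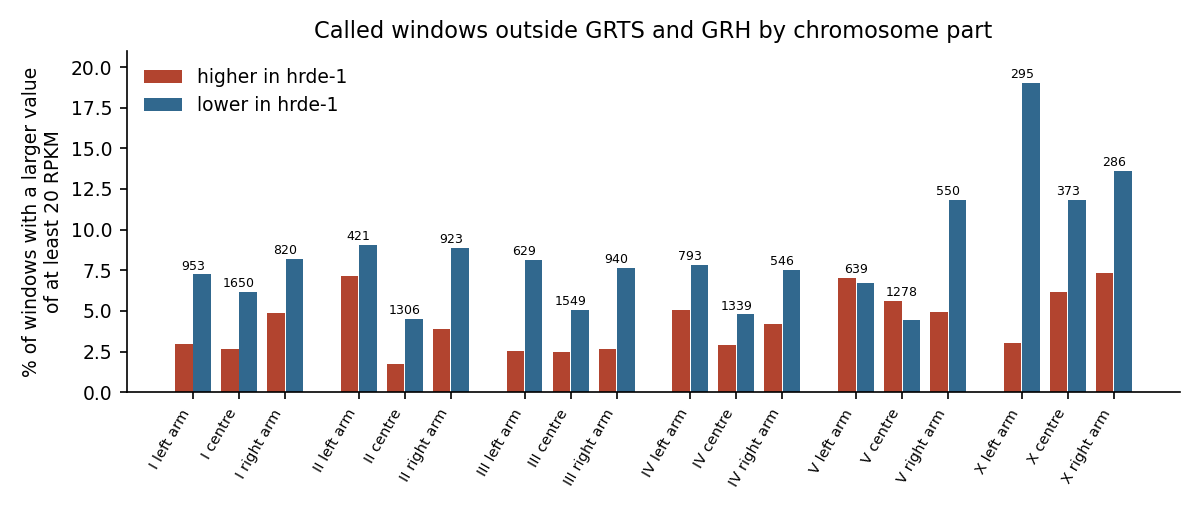
Bars give the share of windows outside GRTS and GRH called higher (red) or lower (blue) in hrde-1, as a percentage of those that reached 20 RPKM in either library, for the left arm, centre and right arm of each chromosome; numbers above the bars count these windows. Arms are the outer 30% on either side. The 3 parts of X have 11.8% to 19.0% lower, and the autosome parts 4.46% to 11.8%.

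The left end of X stood apart. In its first 500 kb, 24 of the 36 windows that reached 20 RPKM were lower in hrde-1 and 1 was higher, and the median log2 ratio was -0.67. The rest of X had 115 lower of 918 (12.5%) and a median of -0.10. X 162001 to 166000, 4 windows in this interval, had 32.1 RPKM in WT, 2.35 in hrde-1, 10.2 in met-2 set-25, 13.9 in set-32 and 12.3 in the triple mutant (ratio 0.07, 0.03 to 0.15). Among windows with a pair mean that reached 5 RPKM, 28.1% in the interval were of whole reads, against 85.6% in the rest of X. Over all 487 kept windows of the interval 208 were, and the part of shared reads in this was not tested.

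The level of a window in the 3 libraries outside the comparison set how often it was called. At 1 to 5 RPKM 60 of 109 windows were higher (55.0%) and 9 lower, which is a small choice of windows, since only those with a high WT or hrde-1 value could be called. At 10 to 20 RPKM 3.49% were higher and 9.33% lower of 6078, at 20 to 50 RPKM 2.18% and 4.86% of 6192, and at 50 to 100 RPKM 1.53% and 2.29% of 1178. At 100 RPKM or more 28 windows were higher (4.52%) and 14 lower (2.26%) of 620. On X the 60 windows of that highest class had a median of 250 RPKM in WT versus 396 in hrde-1 and a ratio of summed levels of 1.33 (1.30 to 1.36), against 1.05 (1.04 to 1.06) on the autosomes. Of these 60 windows of X, 1 was called higher (1.67%) and 0 lower.

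Adjacent called windows formed runs. The 747 higher windows made 515 runs, 418 of 1 window, and 44% of the windows lay in runs of 2 or more. The 1100 lower windows made 958 runs, 859 of 1 window, with 21.9% in runs. Runs with a listed window held most of the long ones. Among the 440 higher runs without one, 386 were of 1 window, 24.8% of the windows lay in runs, and 3 runs reached 4 windows or more.

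These 3 runs were on IV and III. IV 16831001 to 16839000 was the longest, with 25.2 RPKM in WT, 79.0 in hrde-1, 20.9 in met-2 set-25, 6.51 in set-32 and 5.79 in the triple mutant (3.14-fold, 2.66 to 3.71). III 7675001 to 7679000 adjoins a GRH locus and had 7.97 RPKM in WT versus 30.4 in hrde-1 (3.83-fold, 2.55 to 5.86), with 0.69 to 4.43 RPKM in the other libraries. IV 2906001 to 2910000 had 9.87 RPKM in WT versus 25.8 in hrde-1 (2.63-fold, 1.77 to 3.94). There met-2 set-25 had 12.1, set-32 15.9 and the triple mutant 11.7 RPKM, so WT was the lowest library. All its windows held shared reads. The GRH locus next to the run on III, 7679001 to 7682000, went the other way, with 61.9 RPKM in WT versus 42.7 in hrde-1 (0.69, 0.53 to 0.89). A run of 3 windows on I, 11063001 to 11066000, lay 8 kb from a listed window and had 38.9 RPKM in WT versus 107 in hrde-1 (2.75-fold, 2.20 to 3.45).

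The longest lower run was V 17138001 to 17145000, in tiers 1 and 2 and of whole reads throughout. Its 7 windows held 247 reads in WT and 7 in hrde-1, levels of 32.2 and 1.47 RPKM, against 13.9 in met-2 set-25, 38.2 in set-32 and 9.26 in the triple mutant. The ratio was 0.05 (0.02 to 0.10), and hrde-1 was the lowest of the 5 libraries. In the next 3 runs WT was the highest library. II 11757001 to 11762000 had 215 RPKM in WT, 69.0 in hrde-1, 149 in met-2 set-25, 88.4 in set-32 and 30.3 in the triple mutant. X 6618001 to 6623000 had 147 RPKM in WT versus 55.7 in hrde-1, with 15.4 to 52.5 RPKM in the other libraries. I 5368001 to 5373000 had 108 RPKM in WT versus 41.0 in hrde-1, with 34.8 to 47.1 RPKM in the others.

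**Figure D5:**
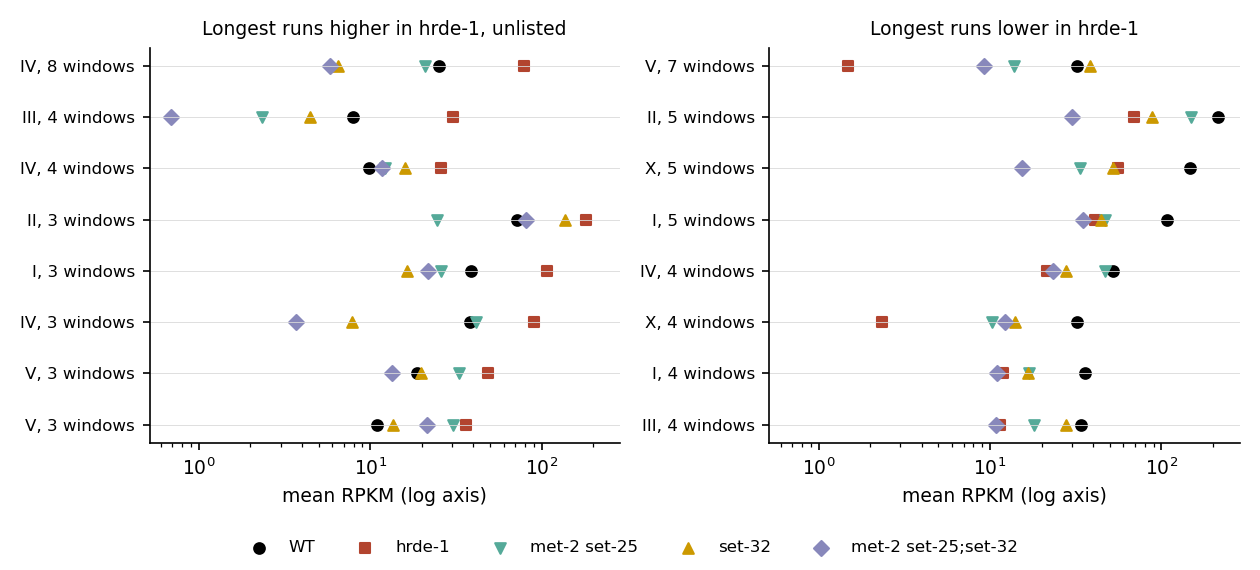
Points are the mean level (RPKM, logarithmic horizontal axis) of each library over the longest runs of neighbouring called windows, higher in hrde-1 without a listed window (left) and lower in hrde-1 (right), named by chromosome and number of windows. In the higher runs hrde-1 is the rightmost point in each. In the lower runs WT is the rightmost in 7 of 8 on the deposited scale, and hrde-1 lies far below the others on V (7 windows, 1.47 RPKM) and X (4 windows, 2.35 RPKM).

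The other libraries were also set beside the pair over all called windows. The 579 unlisted higher windows had median levels of 10.9 RPKM in WT, 29.5 in hrde-1, 17.9 in met-2 set-25, 12.6 in set-32 and 9.26 in the triple mutant, and hrde-1 was the highest library in 449 (77.5%). The 1089 unlisted lower windows had medians of 29.6, 11.8, 20.9, 14.4 and 9.26 RPKM in the same order. WT was the highest library in 895 of these (82.2%) and hrde-1 the lowest in 321 (29.5%). With totals without the rRNA genes, hrde-1 was the highest in 397 of the higher windows (68.6%), WT was the highest in 756 of the lower ones (69.4%), and hrde-1 was the lowest in 502 (46.1%). Among the 13622 unlisted windows that reached 20 RPKM without being called, WT was the highest in 43% and hrde-1 in 24.4% as deposited, or 30.8% and 22.4% with the other totals. The call itself favours a high WT value in lower windows and a high hrde-1 value in higher ones, so these shares describe the called windows only. The lower windows rested on a median of 32.5 reads in WT and 8.00 in hrde-1, and the higher ones on 12 and 20.

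Distance from the lists also separated the directions. Of the 579 unlisted higher windows, 90 lay within 2 kb of a listed window, 26 at 3 to 5 kb and 357 (61.7%) over 100 kb away. Of the 1089 lower ones, 7 lay within 2 kb, 15 at 3 to 5 kb and 804 (73.8%) over 100 kb away, and of the windows not called 77.3% lay over 100 kb away. Over 20 kb from any listed window 432 were higher (3.05%) and 1019 lower (7.19%) of 14180.

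Windows located through the study's primers lay slightly lower in hrde-1. The windows of oma-1, a germline gene of oocyte maturation that the study used as an RNAi target in other animals, had WT levels of 87.6 and 100 RPKM and hrde-1 levels of 67.8 and 70.7 RPKM, with ratios of 0.77 (0.53 to 1.11) and 0.70 (0.49 to 0.998). The window of tba-1, an alpha-tubulin gene, had 117 RPKM in WT versus 86.9 in hrde-1 (0.74, 0.54 to 1.02). In met-2 set-25 the oma-1 windows had 70.2 and 62.7 RPKM and the tba-1 window had 80.6. WT was the highest of the 5 libraries at each of these windows, so a level below WT was not particular to hrde-1. The region used as an H3K9me3 control held 0 or 1 read in both libraries. Neither gene was called, and the interval of the second oma-1 window alone fell short of 1.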

How the data were processed

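Pre-mRNA-seq had been made from young adult worms, and the authors aligned reads with Bowtie 0.12.7 to WS190 (ce6), used perfect alignments only and counted a read with N matches as 1/N. The deposited values are RPKM per 1 kb window, scaled by the authors to sequencing depth. The deposited table also holds a score (K9_tire) and marks of GRTS, GRH, H3K9me3 loss and misannotation. Each library code was tied to its genotype by the study's library list. The value of 1 read was recovered from the steps of the RPKM values, and 78.3% (WT) and 78.2% (hrde-1) of positive values below 40 RPKM were whole reads within 0.02 read. Windows with whole reads in both libraries are called windows of whole reads, and the others hold shared reads.

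Ratios were taken after adding 1 RPKM, which understates changes of low windows. Medians and quartiles used windows with a mean of the pair of at least 5 RPKM. Ratios of summed levels carry 95% exact Clopper-Pearson intervals on rounded reads, without the pseudocount. Where a library held 0 reads, 3 reads were taken as the limit. There was no test across windows or samples. Distances were counted between windows of the same chromosome. Arms were the outer 30% of each chromosome on either side. Calls were tested on simulated data with known changes. The alternatives tried were other pseudocounts, minimum levels, ratios, scalings, arms of the outer 20%, windows of whole reads, windows over 20 kb from the lists, leaving out chromosome V or the left 500 kb of X, an exact binomial test of the reads and, chosen after seeing the data, totals without the rRNA genes for all 5 libraries.

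Windows were named by rule: the 8 longest unlisted runs called higher and the 8 longest called lower, the most changed window of each chromosome and tier, the 8 near-list windows with the highest hrde-1 level, 3 GRTS and 3 GRH windows of each chromosome, all listed windows called lower, the 3 highest and lowest intervals of 500 kb, and the windows of the study's amplicons. Loci of adjacent listed windows were named after their values were seen. Members, lists and classes were chosen with earlier results of these data known. Python 3.11.15, numpy 2.4.6, pandas 2.3.3, scipy 1.17.1 and matplotlib 3.10.9 were used.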

Additional observations from a re-analysis of the deposited data

Results flagged for a closer look

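The 506 windows marked misannotated lie outside the comparison, and together they held more nascent RNA in hrde-1. They had 6443 reads in WT and 5252 in hrde-1, a ratio of summed levels of 1.32 (95% counting interval 1.27 to 1.37), where the 99764 kept windows had 0.998. Of 63 such windows that reached 20 RPKM, 3 were called higher and 1 lower, beside 4.8% and 7.08% of the kept windows. The higher calls were thus near the share of the kept windows. They took 0.59% of the WT values and 0.77% of the hrde-1 values, and the difference has no replicate check.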

How the results depend on the processing

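No paired analysis was possible because there is 1 library per genotype. Among 98 named regions, 0 of 392 values under other pseudocounts and scalings turned a called direction, and 97 regions kept their sign throughout. A pseudocount added to both values cannot turn a sign. The scalings multiplied hrde-1 by 1.05 or 1.08, too little to reverse a 2-fold call. These counts were thus fixed by the settings and do not test the calls. Counts of called windows moved more. With a pseudocount of 5 RPKM 547 windows were higher and 666 lower (45.1% higher). At a larger value of at least 10 RPKM 1871 were higher and 2630 lower, and at 50 RPKM 219 and 177 (55.3%). At a ratio of 1.5 they were 1911 and 3395, and at a ratio of 4 they were 180 and 61 (74.7%). With whole reads only, 386 were higher and 807 lower (32.4% higher), over 20 kb from the lists 432 and 1019 (29.8%), and by the exact binomial test on recovered reads, which compares these libraries and not the genotypes, 412 were higher and 206 lower (66.7%) at an adjusted threshold of 0.05. The median log2 ratio of unlisted windows was -0.089 with a pseudocount of 5 RPKM, -0.13 with no minimum level or with the minimum set on the other 3 libraries, -0.15 at a mean of 20 RPKM, -0.0083 when rescaled and -0.047 with totals without rRNA. The arm minus centre difference was -0.084 with no minimum and -0.086 at 20 RPKM, and X minus autosomes was 0.10 at 20 RPKM. Tier 2 minus tier 7 was 0.17 with no minimum, 0.29 at 20 RPKM, 0.25 with the minimum on the other libraries, 0.24 for whole reads and 0.15 over 20 kb from the lists. For windows 1 to 2 kb from GRTS the median was 1.08 with a pseudocount of 5 RPKM, 1.02 with no minimum, 0.87 with the minimum on the other libraries and 1.64 for whole reads, and for GRH at 20 RPKM it was -0.0078. The cause of these moves was not tested. Tier 8 minus tier 1 has no value under whole reads, since no tier 8 window is of whole reads. Depth limits low windows, since 20 RPKM is 13.6 reads in hrde-1.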

Other observations

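Unlisted windows that lose H3K9me3 in the methyltransferase mutants differed by which mutant carried the mark. Of 189 windows with a SET-32-dependent mark that reached 20 RPKM, 65 were higher in hrde-1 (34.4%) and 21 lower (11.1%), beside 3.79% and 7.12% over all unlisted windows, and the median log2 ratio was 0.32. Windows that depend on MET-2 SET-25 and not on SET-32 had 42 higher and 43 lower of 366 and a median of -0.07, and those marked in the triple mutant only had 15 higher and 8 lower of 93 and a median of 0.05. Over 20 kb from the lists, the SET-32-dependent windows had 15 higher (18.5%) and 19 lower (23.5%) of 81, beside 3.05% and 7.19% over all windows that far away, and a median of -0.04.

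In intervals of 500 kb, 199 of which held at least 400 kept windows, the ratio of summed levels had a median of 0.93 and was above 1 in 43. The highest was 2.23 (2.12 to 2.34) on V from 5000001 to 5500000, with 22 GRTS and 7 GRH windows, followed by 1.46 (1.41 to 1.50) on X from 16500001 to 17000000, which holds no listed window, and 1.34 (1.28 to 1.40) on V from 8500001 to 9000000, with 30 GRTS windows. The interval on X had 14.2 RPKM per window in WT, 20.7 in hrde-1, 18.9 in met-2 set-25, 12.0 in set-32 and 9.49 in the triple mutant. The lowest were 0.61 (0.57 to 0.65) at the left end of X, 0.77 (0.70 to 0.85) on V from 17000001 to 17500000 and 0.78 (0.75 to 0.82) at the left end of III.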
